A study of Mus musculus with 8 samples.

Results

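The 39 genes described here encode the integrin receptor chains (26 genes), the laminin chains (11 genes) and the nidogens (2 genes) of the mouse. They were taken by gene symbol from the 55367 genes of a count table of fibroblastic reticular cells (FRCs), and 25 of them reached 10 counts in 3 or more of the 8 libraries and were tested among 12137 genes. The cells were 1 FRC line derived from lymph nodes of p53ER/ER C57BL/6 mice, so every group shared that genotype and origin and the 8 libraries are cultures of a single line. Cultures were kept for 4 days in RPMI with reduced serum and differed in what that medium carried. Vehicle cultures had water and LA cultures had lactic acid at 15 mmol/L. TCM cultures had RPMI conditioned by B16.F10 melanoma cells, and CCM cultures, their control, had RPMI conditioned by the FRCs themselves. Each of the 4 groups had 2 libraries, described by the study as biological replicates.

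Integrins are receptors of 1 α and 1 β chain that join the matrix or other cells to the actin cytoskeleton. The α chain largely sets the ligand: Itga1, Itga2, Itga10 and Itga11 pair with Itgb1 to bind collagens, Itga3, Itga6 and Itga7 bind laminins, and Itga5, Itgav, Itga8 and Itga2b bind ligands such as fibronectin, vitronectin and nephronectin. Laminins are trimers of an α, a β and a γ chain that polymerise into the basement membrane sheet, and nidogens bridge that sheet to collagen IV. In lymph nodes FRCs make and ensheathe the reticular fibres, which carry basement membrane proteins around a collagen core, and laminin α4 and α5 are chains of those fibres.

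The libraries held 8232889 to 14107964 counts. All levels below are CPM, counts scaled to a common library size after TMM correction, where 3 counts in a library were worth 0.212 to 0.355 CPM. A gene was called changed at a Benjamini-Hochberg adjusted p under 0.05 over all genes tested, by edgeR's quasi-likelihood test, with a log2 fold change beyond 0.39. Of 8 FRC markers, 5 passed the count minimum (Pdpn, Vcam1, Pdgfra, Pdgfrb and Il7), while Thy1 had 42 counts in all, Ccl19 had 1 and Ccl21a had 0. The summed level of the FRC list was 711 to 852 CPM. Ptprc, which encodes CD45, was at 0 counts in all libraries, as were Cd3e, Epcam, Krt14 and Tyr, and none of the 5 endothelial markers passed the count minimum. Other leukocyte, epithelial and melanocyte markers did pass it. Group means were 9.42 to 18.0 CPM for Lyz2, 1.11 to 1.59 for Csf1r and 0.753 to 4.44 for Cdh1. The melanocyte markers Pmel and Mitf had group means of 1.07 to 1.63 and 0.696 to 1.97 CPM. The TCM replicates differed from each other more than those of the other groups, with a chi-square per degree of freedom across genes of 20.1 against 3.28 to 7.33.

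The 250 bases upstream of the RefSeq start are shown for Lama5, Itga11 and Itga8. Lama5 and Itga11 were the members called higher in TCM than in both controls, and Itga8 had the largest fall in TCM. The sequences are from RefSeq (GRCm38.p6), 5′ to 3′ on the gene's strand, and capitals mark the GC-box letters GGGCGG on either strand. They lie at chr2:180225860-180226109, chr9:62677605-62677854 and chr2:12301945-12302194, on the minus, plus and minus strand. Gene positions given below are from GENCODE, whose start lies inside the Itga11 window and a little downstream of the Itga8 window.
Lama5: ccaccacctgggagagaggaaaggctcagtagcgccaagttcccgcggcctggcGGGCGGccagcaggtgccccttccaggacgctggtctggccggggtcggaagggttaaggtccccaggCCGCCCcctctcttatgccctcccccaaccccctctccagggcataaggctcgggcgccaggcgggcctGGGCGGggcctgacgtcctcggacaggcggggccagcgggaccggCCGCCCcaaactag
Itga11: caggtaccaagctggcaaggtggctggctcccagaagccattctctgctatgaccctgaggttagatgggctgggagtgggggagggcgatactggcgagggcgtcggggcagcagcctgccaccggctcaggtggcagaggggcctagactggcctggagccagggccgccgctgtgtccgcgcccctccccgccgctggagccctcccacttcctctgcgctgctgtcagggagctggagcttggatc
Itga8: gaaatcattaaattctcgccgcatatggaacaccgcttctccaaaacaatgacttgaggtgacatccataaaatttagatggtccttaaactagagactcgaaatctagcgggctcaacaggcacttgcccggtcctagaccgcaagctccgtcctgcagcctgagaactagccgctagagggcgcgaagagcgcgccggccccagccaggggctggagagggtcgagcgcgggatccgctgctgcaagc
The Lama5 window held 4 matches to GGGCGG, 19 CpG dinucleotides and a GC content of 72.4%. The Itga11 window held no match, 12 CpG and a GC content of 68.4%, and the Itga8 window held no match, 18 CpG and a GC content of 56.4%. A match to these letters was present in 32.7% of the 32851 mouse promoter windows of the same length, whose medians were a GC content of 52.4% and 6 CpG. The letters TGANTCA, read by AP-1, were in 6.75% of all windows on either strand. The letters GGAATG, read by TEAD factors, were in 12.6% of them, and ACGTG, the core read by hypoxia-inducible factors, in 16.6%. None of these 3 windows held any of these other motifs. Itgb3, Itgb2 and Nid2 had no entry in that table.

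Itgb1, the β chain shared by most of the collagen and laminin receptors, had the highest level of the family, at 439 CPM per kilobase of exon over all libraries. Levels between genes are compared per kilobase throughout. Nid2 followed with 83.3 CPM per kilobase, then Itgb5 with 61.5, Itga5 with 55.3, Lamb1 with 51.7, Nid1 with 47.9, Lamc1 with 39.5, Itgav with 38.2, Lamb2 with 25.2, Itga11 with 23.0 and Lama4 with 11.3. The line thus carried RNA for the fibronectin receptor chains Itga5 and Itgav, for the collagen receptor chain Itga11, and for all 3 laminin chain classes. A second tier of 8 genes lay between 1.22 and 5.33 CPM per kilobase: Itgb3, Itga9, Itga1, Itgb8, Itga3, Itga2b, Itga4 and Lama5. Itgb2, Itga8, Itga10, Itga6 and Lama1 were lower, between 0.250 and 0.499 CPM per kilobase. Several neighbours in this order were closer than their replicates. In vehicle, Lamb1, Nid1 and Lamc1 were at 48.6, 45.7 and 41.8 CPM per kilobase, while Nid1 alone was at 255 CPM in 1 vehicle library and 380 in the other, so their order is not fixed by these data.

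**Figure D1:**
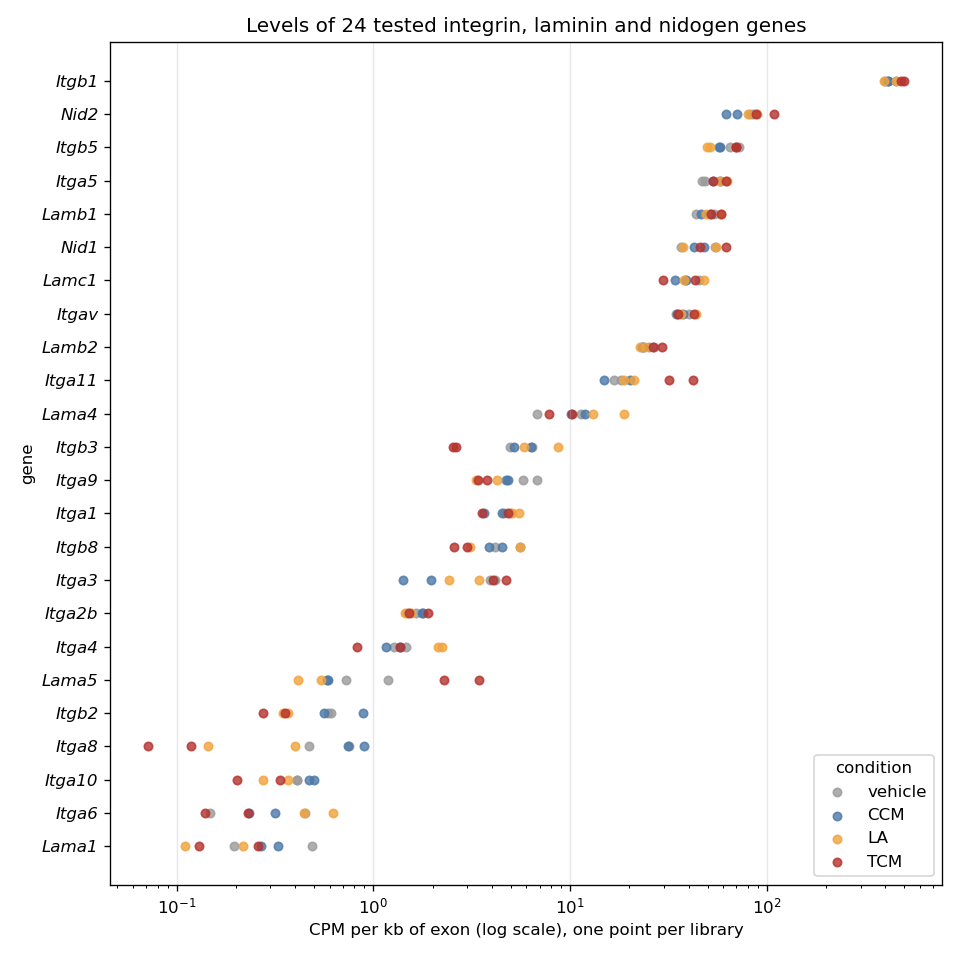
Level of 24 of the tested genes in CPM per kilobase of exon (log axis), with a point for each of the 8 libraries coloured by group. Itgb1 stands above all other genes at a mean of 439, the 2 TCM points of Lama5 and Itga11 lie above the other 6, and those of Itga8 and Itgb3 lie below them.

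Within chain classes, 1 gene usually supplied most of the RNA. Itgb1 made up 84.2% of integrin β RNA in vehicle, 85.9% in CCM, 87.1% in LA and 86.6% in TCM as group means. Lamb1 made up 64.8%, 67.6%, 69.5% and 66.4% of laminin β RNA in the same order, and Lamb2 nearly all of the rest. Integrin α was an exception. There Itga5 made up 39.2%, 44.6%, 43.9% and 38.7% in that order, and Itgav 30.5%, 29.1%, 29.2% and 26.1%.

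The other 14 genes were under the count minimum. Itgad, Itgam and Itgax, leukocyte integrin α chains, had 0 counts in all 8 libraries. The highest count in any library was 15 for Lamb3, 8 for Itga7 and Lama2, 7 for Itga2, 4 for Itgb4 and Itgb7, 3 for Itgal and Lama3, 2 for Itgae, and 1 for Itgb6 and Lamc3. The epithelial laminin and hemidesmosome chains Lama3 and Itgb4 and the leukocyte chains among these 14 were therefore at or near the limit of detection at this depth. Lamb3, also an epithelial laminin chain, had 15 and 13 counts in vehicle (1.68 and 1.20 CPM) and 4 to 7 counts in each other library.

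TCM was compared with CCM to ask what tumor-conditioned medium changes beyond medium conditioned by the FRCs. Lama5, Itga3, Itga11 and Nid2 rose and Itga8, Itgb3 and Itgb2 fell, which is 7 of 25 tested genes (28%) beside 19.1% of all genes tested. Higher calls made up 16% of the family and 8.83% of all genes, and lower calls 12% and 10.2%. Without TMM factors 4 genes were called higher and 5 lower. The median log2 fold change of the 25 genes was 0.04 and that of all genes 0.00032. By class, 3 of 11 integrin α, 2 of 5 integrin β, 1 of 3 laminin α and 1 of 2 nidogen genes were called, and neither of the 2 laminin β genes.

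Lama5 (chr2:180176373-180225859, minus strand, GRCm38) encodes laminin α5, a chain of mature and vascular basement membranes. Its level was 13.5 and 8.23 CPM in vehicle, 6.66 and 6.60 in CCM, 6.15 and 4.73 in LA, and 26.0 and 39.1 in TCM. Both TCM libraries were above all 6 others, and both LA libraries were below them. Lama5 rose by a log2 fold change of 2.29 (SE 0.252, adjusted p = 0.000125) in TCM over CCM, the largest rise of the family. Its promoter is the first of the 3 shown above.

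Lama4, the most abundant laminin α chain and a chain of vessel and stromal basement membranes, was at 143 and 122 CPM in CCM and 94.7 and 123 in TCM. These groups overlapped, and the log2 fold change was -0.28 (SE 0.229, adjusted p = 0.418). The share of Lama5 in laminin α RNA per kilobase was 4.58% and 5.23% in CCM and 22.2% and 24.6% in TCM. The share in vehicle was 14.4% and 5.71%, and in LA 3.91% and 2.14%. Lama4 supplied 92.9% and 91.5% in CCM, 76.4% and 73.4% in TCM, and 95.2% and 96.5% in LA. With 2 libraries a group the smallest two-sided p of an exact permutation test is 0.333, so the shares are given as values. Lama1, the α chain of early embryonic basement membranes, stayed under 5 CPM in each library.

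**Figure D2:**
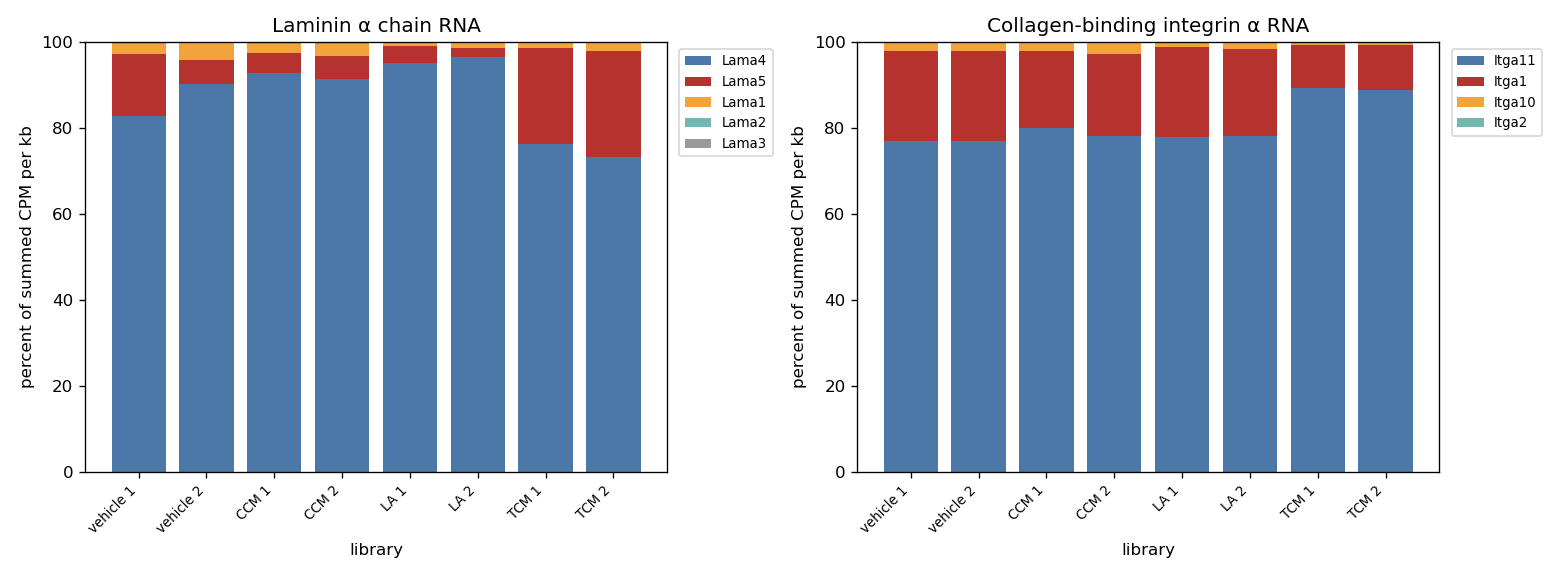
Percent of summed CPM per kilobase supplied by each gene in each of the 8 libraries, for laminin α chains (left) and collagen-binding integrin α chains (right). Lama5 supplied 22.2% and 24.6% of laminin α RNA in TCM and at most 14.4% elsewhere, and Itga11 supplied 89.4% and 89.0% of the collagen-binding α RNA in TCM.

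No laminin β or γ chain was called. Lamb1 had a log2 fold change of 0.18 (SE 0.132, adjusted p = 0.382), Lamb2 of 0.25 (SE 0.0929, adjusted p = 0.077) and Lamc1 of -0.0019 (SE 0.173, adjusted p = 0.995) in TCM over CCM.

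Nid2 (chr14:19751265-19811787, plus strand) encodes nidogen 2. It was at 440 and 425 CPM in vehicle, 364 and 321 in CCM, 462 and 415 in LA, and 458 and 566 in TCM. The TCM libraries were above both CCM libraries and 1 of them was below an LA library. Nid2 rose by 0.58 (SE 0.122, adjusted p = 0.00658) over CCM and was not called without CCM replicate 2 (0.49, adjusted p = 0.0864). Nid2 shares 437 of its 5174 exon bases (8.45%) with Rtraf, a gene on the opposite strand that was itself higher in TCM than in CCM (0.47, SE 0.112, adjusted p = 0.0122). Whether reads were counted by strand is not given in the sources used here, and the part of Rtraf reads in the Nid2 counts was not tested. Nid1 was at 333 and 297 CPM in CCM and 319 and 433 in TCM, with a log2 fold change of 0.26 (SE 0.217, adjusted p = 0.442).

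Among the receptors, Itga11 (chr9:62677826-62783982, plus strand) encodes integrin α11, a receptor chain for fibrillar collagen found on fibroblasts. It was at 86.1 and 93.0 CPM in vehicle, 103 and 76.8 in CCM, 96.9 and 109 in LA, and 163 and 216 in TCM. Both TCM libraries were above the other 6, which ran from 76.8 to 109 CPM. The log2 fold change in TCM over CCM was 1.07 (SE 0.158, adjusted p = 0.000747).

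The remaining collagen-binding α chains were not called. Itga1, a chain that binds basement membrane collagens, was at 84.0 and 67.9 CPM in CCM and 66.3 and 90.5 in TCM (log2 fold change 0.04, SE 0.150, adjusted p = 0.868). Itga10 had a log2 fold change of -0.84 (SE 0.332, adjusted p = 0.0969), from a mean of 2.51 CPM in CCM. The summed level of collagen-binding α RNA was 22.1 ± 4.24 CPM per kilobase in CCM and 41.4 ± 8.25 in TCM (SD, n = 2), beside 22.7 ± 1.21 in vehicle and 25.7 ± 2.11 in LA. Itga11 supplied 80.1% and 78.1% of it in CCM and 89.4% and 89.0% in TCM.

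Itga3 (chr11:95044474-95076801, minus strand) encodes a laminin receptor α chain that binds α5 laminins. It was at 23.7 and 22.5 CPM in vehicle, 8.10 and 11.3 in CCM, 19.8 and 13.8 in LA, and 23.2 and 27.1 in TCM. The CCM libraries were the lowest, and TCM and vehicle overlapped. Itga3 rose by 1.38 (SE 0.199, adjusted p = 0.00068) in TCM over CCM. Itga6, another laminin receptor α chain, had a log2 fold change of -0.59 (SE 0.494, adjusted p = 0.441), from a mean of 2.49 CPM in CCM.

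Itga8 (chr2:12106632-12301922, minus strand) encodes the α8 chain, a receptor for nephronectin. It was at 3.46 and 5.55 CPM in vehicle, 6.58 and 5.45 in CCM, 1.06 and 2.96 in LA, and 0.527 and 0.873 in TCM. The TCM values rest on 5 and 8 counts and are below every other library. Itga8 fell by 3.09 on the log2 scale (SE 0.477, adjusted p = 0.00103).

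Itgb3 (chr11:104608000-104670476, plus strand) encodes the β3 chain of the vitronectin receptor. It was at 29.3 and 37.8 CPM in vehicle, 37.4 and 30.8 in CCM, 34.3 and 51.4 in LA, and 15.5 and 15.1 in TCM. Both TCM libraries were below the other 6. Itgb3 fell by 1.16 on the log2 scale (SE 0.206, adjusted p = 0.00251). Its α partner Itgav was not called (0.10, SE 0.128, adjusted p = 0.637), with a mean of 391 CPM in CCM and 418 in TCM. Itga2b, the other α partner of the β3 chain, was at 9.61 and 9.75 CPM in CCM and 10.3 and 8.30 in TCM.

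Itgb2 (chr10:77530252-77565708, plus strand) encodes the β chain of leukocyte integrins. It was at 1.79 and 1.85 CPM in vehicle, 2.70 and 1.72 in CCM, 1.06 and 1.13 in LA, and 0.843 and 1.09 in TCM, from 8 to 32 counts a library. Both TCM libraries were below those of CCM and vehicle and overlapped LA. It fell by 1.20 on the log2 scale in TCM (SE 0.370, adjusted p = 0.0403). The call was lost in 7 of the 8 fits that left out a library (adjusted p up to 0.313) and with DESeq2 (adjusted p = 0.191). Of the 6 leukocyte markers Lyz2 and Csf1r passed the count minimum, Ptprc and Cd3e were at 0, and their summed level was 15.2 to 15.3 CPM in CCM and 14.5 to 24.0 in TCM.

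Itgb5, which pairs with Itgav, had an adjusted p of 0.0487 in TCM over CCM, but its log2 fold change of 0.28 (SE 0.0908) was under the fold threshold. Itga9, a receptor chain for tenascin and osteopontin, had -0.42 (SE 0.140, adjusted p = 0.056), and Itgb8, whose receptor with Itgav binds latent TGF-β, had -0.58 (SE 0.237, adjusted p = 0.106). Itgb1 had 0.24 (SE 0.113, adjusted p = 0.162), Itga5 had 0.05 (SE 0.104, adjusted p = 0.787) and Itga4 had -0.21 (SE 0.203, adjusted p = 0.494).

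**Figure D3:**
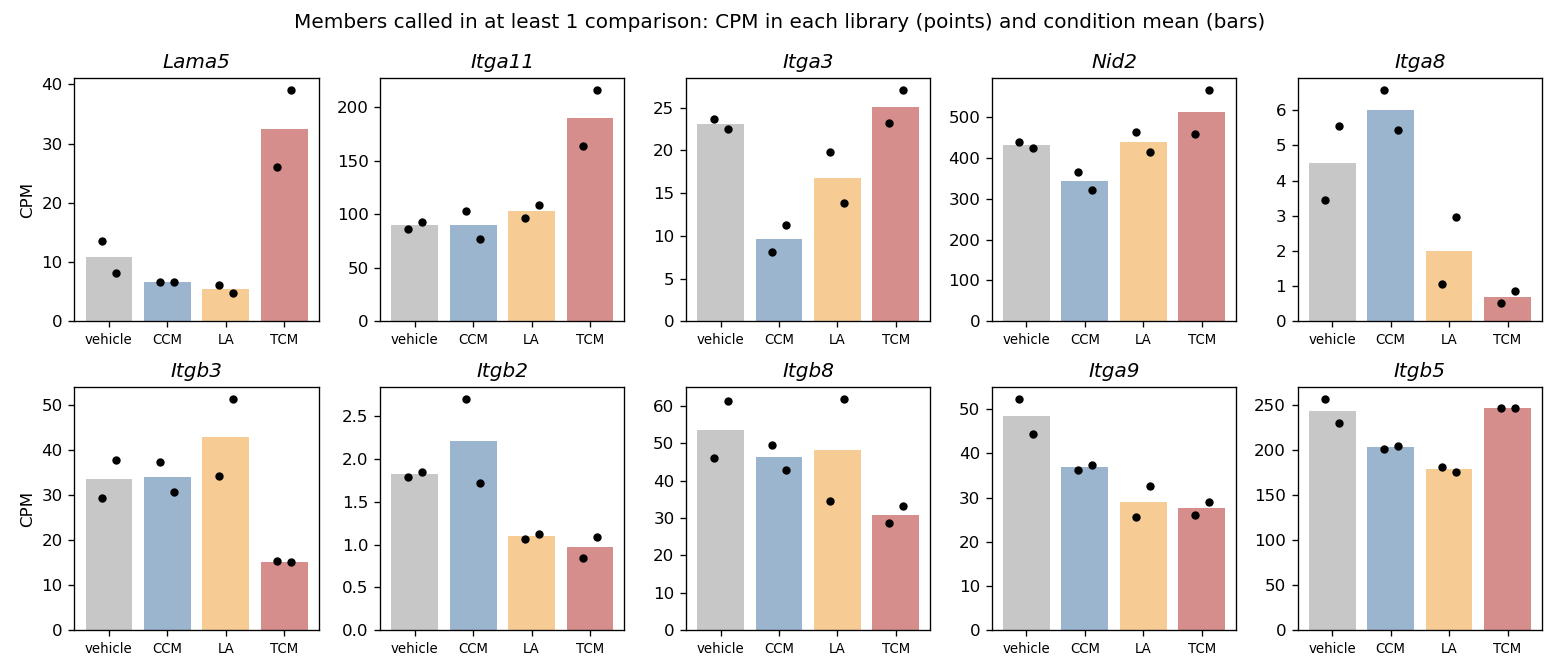
CPM of the genes called in any comparison in each library, grouped by vehicle, CCM, LA and TCM, with a point for each library and a bar at the group mean. Lama5 and Itga11 have their 2 highest points in TCM, Itga8 and Itgb3 their 2 lowest, and Itga3 its 2 lowest in CCM.

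LA was compared with vehicle to ask what lactic acid alone changes. Itga9 and Itgb5 fell and no gene of the family was called higher, which is 2 of 25 genes (8%) beside 2.55% of all genes tested. Lower calls made up 1.24% of all genes and higher calls 1.31%. The median log2 fold change of the 25 genes was -0.01. None of the 9 laminin and nidogen genes was called by edgeR, where 3 (Lama5 and Lama4 among them) had an unadjusted p under 0.05 and 1 (Lama5) was called by DESeq2. Many genes outside the family were under 0.05 too. By edgeR's p, Itga3 (0.0262) ranked 1218 and Lama1 (0.0545) ranked 1814 among all 12137 genes tested.

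Itga9 (chr9:118606690-118901003, plus strand) was at 52.3 and 44.4 CPM in vehicle, 36.3 and 37.4 in CCM, 25.6 and 32.5 in LA, and 26.1 and 29.0 in TCM. Both LA libraries were below both vehicle libraries. It fell by 0.72 on the log2 scale (SE 0.136, adjusted p = 0.0219), and the call was lost without vehicle replicate 1 (adjusted p = 0.185), vehicle replicate 2 (0.0747) or LA replicate 1 (0.152).

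Itgb5 (chr16:33829665-33949338, plus strand) was at 257 and 231 CPM in vehicle, 202 and 205 in CCM, 182 and 176 in LA, and 247 in both TCM libraries. The LA libraries were the lowest of the 8. Itgb5 fell by 0.45 on the log2 scale (SE 0.0911, adjusted p = 0.0293). That call was lost without either vehicle, CCM or LA replicate, with adjusted p of 0.0748 to 0.252.

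Several uncalled genes, Lama5, Itga8 and Lama4 among them, had larger fold changes with LA than these. Lama5 had -1.01 (SE 0.289, adjusted p = 0.105) and Itga8 had -1.05 (SE 0.385, adjusted p = 0.222). On the other side, Lama4 was at 159 and 226 CPM in LA and 82.4 and 138 in vehicle (0.80, SE 0.228, adjusted p = 0.102). With a term for replicate number added to the fit, Lama4 was called higher. Itga4, a receptor chain for VCAM-1 and fibronectin, was at 29.7 and 31.4 CPM in LA and 17.8 and 20.4 in vehicle (0.68, SE 0.188, adjusted p = 0.0957). Fitted on the vehicle and LA libraries alone, Itga4 was called higher. Itga5 (0.34, SE 0.105, adjusted p = 0.135) and Itga11 (0.20, SE 0.159, adjusted p = 0.657) had smaller changes than either called gene.

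**Figure D4:**
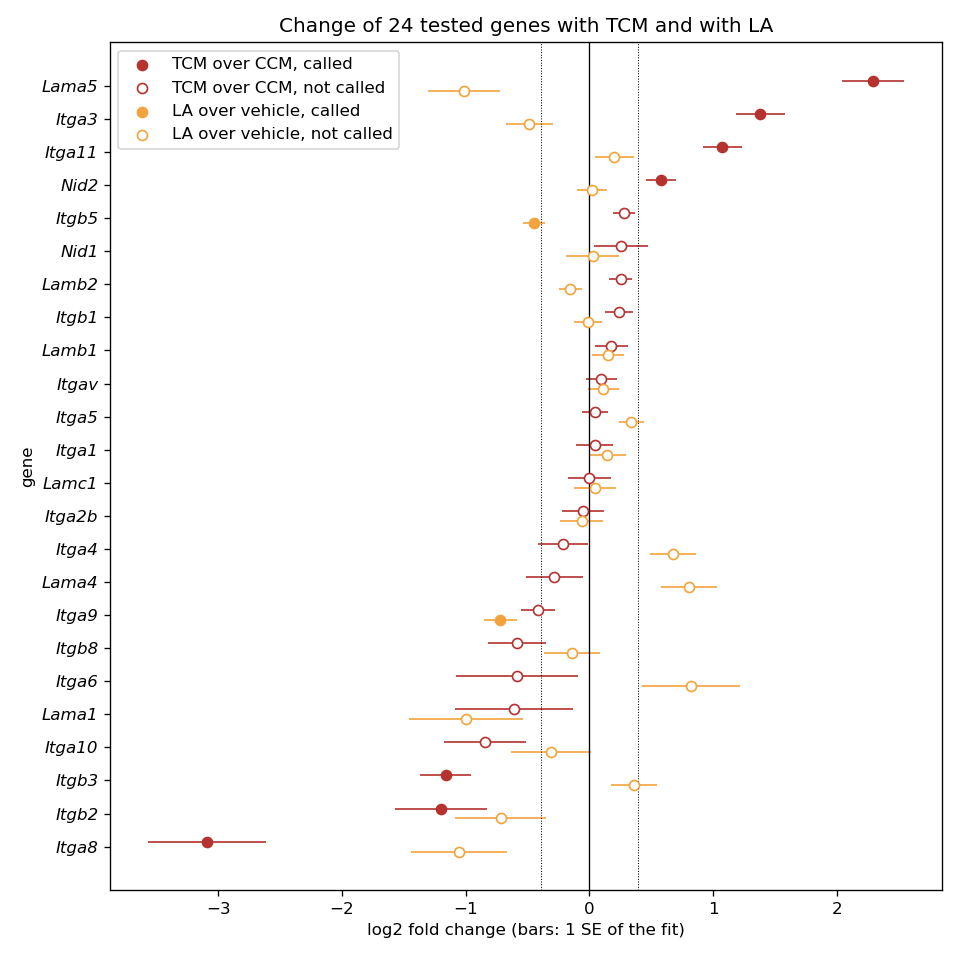
Log2 fold change of 24 of the tested genes in TCM over CCM (red) and in LA over vehicle (orange), with bars of 1 SE of the fit, filled points for calls and dotted lines at 0.39 in either direction. Of these, 7 have a filled red point, 2 a filled orange point and none both.

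The difference between the effect of TCM over CCM and that of LA over vehicle was tested as 1 contrast, since a call in only 1 of them does not show that they differ. It was called for Lama5, Itga3, Itga11, Itgb5 and Itgb3, which is 5 of 25 genes (20%) beside 10.4% of all genes tested. Of these 4 were higher, beside 4.45% of all genes, and 1 was lower, beside 6% of all genes. The TCM effect was the higher for Lama5 by 3.31 on the log2 scale (SE 0.384, adjusted p = 0.000286), for Itga3 by 1.87 (SE 0.275, adjusted p = 0.00137), for Itga11 by 0.87 (SE 0.223, adjusted p = 0.0305) and for Itgb5 by 0.73 (SE 0.129, adjusted p = 0.00423). It was the lower for Itgb3, at -1.52 (SE 0.278, adjusted p = 0.00521). For Itga8 the difference was -2.04 (adjusted p = 0.0756), for Lama4 -1.09 (adjusted p = 0.0556), for Itga4 -0.89 (adjusted p = 0.0664) and for Nid2 0.56 (adjusted p = 0.0642). The call of Itga11 was lost in 6 of the 8 fits that left out a library, with adjusted p of 0.053 to 0.119, and that of Itgb3 without TCM replicate 1 (-1.55, adjusted p = 0.0523). Without TMM factors 3 genes had a higher and 4 a lower TCM effect.

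The 2 controls were compared to see how far medium conditioned by the FRCs differs from plain medium. Itga3 was lower in CCM than in vehicle, with a log2 fold change of -1.26 (SE 0.200, adjusted p = 0.0251), the only call among 25 genes (4%) beside 1.3% of all genes tested, 0.898% higher and 0.404% lower. That call was lost without any 1 of the 4 control libraries, with adjusted p of 0.099 to 0.288. Lama5 had -0.70 (adjusted p = 0.308). None of the 9 laminin and nidogen genes was called by edgeR or DESeq2, while 3 of them had an unadjusted p under 0.05. Ranked by edgeR's p over all 12137 genes tested, Lama5 (0.0297) was number 1170 and Itga5 (0.0589) number 1724.

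TCM was therefore also set against vehicle, a comparison added after the levels of Itga3 in the controls were seen, and one that shares the TCM libraries with the comparison above. Lama5 (1.60, SE 0.241, adjusted p = 0.00108) and Itga11 (1.08, SE 0.159, adjusted p = 0.000938) rose over vehicle too. Itga8 fell by 2.69 (SE 0.504, adjusted p = 0.00389), Itgb3 by 1.14 (SE 0.208, adjusted p = 0.00336) and Itga9 by 0.81 (SE 0.139, adjusted p = 0.0023). Itgb8 (chr12:119158022-119238802, minus strand) was at 45.9 and 61.2 CPM in vehicle, 49.6 and 42.8 in CCM, 34.4 and 61.8 in LA, and 28.6 and 33.2 in TCM. Both of its TCM libraries were below the other 6, and it fell by 0.80 (SE 0.237, adjusted p = 0.0366). The call of Itgb8 was lost without vehicle replicate 2, TCM replicate 1 or TCM replicate 2, with adjusted p of 0.224 to 0.372, and that of Itgb3 without TCM replicate 1 (adjusted p = 0.0587). These 6 calls are 24% of the family beside 17.5% of all genes tested. Higher calls made up 8% of the family and 8.58% of all genes, and lower calls 16% and 8.9%.

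Itga3 and Nid2, higher in TCM than in CCM, were not called against vehicle. Itga3 had a log2 fold change of 0.12 (SE 0.183, adjusted p = 0.684) and Nid2 of 0.24 (adjusted p = 0.192). Itgb2 had -0.91 (adjusted p = 0.134) and Itgb5 had 0.02 (SE 0.0907, adjusted p = 0.907). The laminin-binding α RNA of Itga3, Itga6 and Itga7 summed to 4.41 CPM per kilobase in vehicle, 2.04 in CCM, 3.52 in LA and 4.63 in TCM as group means. Over the 5 comparisons 10 of the 25 genes were called at least once (40%) and 15 never were, beside 25.9% of all genes tested called at least once.

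Genes that work with these receptors and ligands were read from 4 lists. Of 27 integrin adaptor and focal adhesion genes, 24 were tested, and 3 rose and none fell in TCM over CCM (12.5% beside 19.1% of all genes), with a median log2 fold change of 0.09. They were Zyx, which encodes the stress fibre protein zyxin (885 ± 28.8 CPM in CCM and 2385 ± 197 in TCM; log2 fold change 1.43, SE 0.126, adjusted p = 3.49e-05), Parvb, of the ILK complex (0.94, adjusted p = 0.000639), and Tns1, a tensin (0.83, adjusted p = 0.00648). With LA, Parvb rose (0.61, adjusted p = 0.0491), 1 of 24 genes (4.17% beside 2.55% of all genes), and the next smallest adjusted p were those of Lims2 (-1.20, adjusted p = 0.201) and Actn4 (-0.21, adjusted p = 0.368).

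Of 25 other laminin receptors and basement membrane partners, 23 were tested, and in TCM over CCM 6 rose (Sdc4, Npnt, Hspg2, Agrn, Smoc1 and Sdc2) and 4 fell (Col15a1, Col18a1, Ntn1 and Fbln1), with a median of 0.33. The 10 calls are 43.5% of those tested, beside 19.1% of all genes (8.83% higher and 10.2% lower). Set against vehicle, TCM had 6 calls in this list (26.1% beside 17.5% of all genes). Agrn, Smoc1 and Smoc2 were higher, and Col15a1, Ntn4 and Ntn1 were lower. Col15a1, a collagen of the basement membrane zone, was at 32.2 ± 8.55 CPM in CCM and 1.39 ± 0.117 in TCM (-4.52, adjusted p = 0.000182). Npnt, which encodes nephronectin, the ligand of the α8 chain, rose by 2.42 (adjusted p = 0.00339), from 1.41 ± 0.509 to 7.70 ± 2.84 CPM. In vehicle Npnt was at 3.61 ± 2.10 CPM, and TCM over vehicle was not called (1.05, adjusted p = 0.0858). Col18a1, another basement membrane zone collagen, fell by 0.56 (adjusted p = 0.00294). With LA, Ntn1 (-1.03, adjusted p = 0.00385) and Ntn4 (-0.54, adjusted p = 0.0447), netrins related to the laminin chains, fell. These calls are 8.7% of those tested beside 2.55% of all genes, and Col18a1 had 0.28 (adjusted p = 0.221). Ntn1 (-0.72, adjusted p = 0.0346) and Ntn4 (-0.70, adjusted p = 0.0287) were also called lower in CCM over vehicle, where 1.3% of all genes were called. Their fall from vehicle was thus not particular to LA.

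Of 19 integrin ligands other than laminins and collagens, 14 were tested and 11 were called in TCM over CCM (78.6% beside 19.1% of all genes). Fn1, F11r, Thbs1, Mfge8, Lrrc32 and Thbs2 rose, and Postn, Tnc, Tgfb1, Cdh1 and Edil3 fell, with a median of 0.30. Set against vehicle, TCM had 4 calls among these 14 genes (28.6% beside 17.5% of all genes). They were Vcam1 and Thbs2, higher, and Tnc and Cdh1, lower. Mfge8, a ligand of the Itgav receptors, rose by 0.71 (adjusted p = 0.000441). Thbs1, thrombospondin 1, rose by 0.75 (adjusted p = 0.00175), from 5823 ± 78.9 to 9802 ± 1438 CPM. In vehicle Thbs1 was at 7923 ± 430 CPM, and TCM over vehicle was not called (0.31, adjusted p = 0.116). Cdh1, E-cadherin, fell by 1.80 (adjusted p = 0.00632), from 2.67 ± 0.68 CPM. With LA, Lrrc32, which holds latent TGF-β at the cell surface, fell by 1.32 (adjusted p = 0.000532), from 48.5 ± 1.29 to 19.4 ± 0.315 CPM, the 1 call of 14 (7.14% beside 2.55% of all genes). Cdh1 had -1.17 (adjusted p = 0.0568) and Mfge8 -0.38 (adjusted p = 0.067) with LA.

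Of 13 membrane partners of integrins, 3 rose (Plaur, Cd151 and Ly6e) and 3 fell (Cd82, Cd44 and Itgbl1) in TCM over CCM, which is 46.2% beside 19.1% of all genes (8.83% higher and 10.2% lower), with a median of -0.18. Ly6e, a GPI-anchored surface protein, rose by 1.29 (adjusted p = 3.73e-05). Cd44, the hyaluronan receptor, fell by 0.78 (adjusted p = 0.00138) and Itgbl1 fell by 1.26 (adjusted p = 0.00344). Set against vehicle, TCM also had 6 calls here (46.2% beside 17.5% of all genes). Ly6e and Emp2 were higher, Cd82, Cd44, Itgbl1 and Slc3a2 were lower, and Plaur and Cd151 were not called. With LA the 3 smallest adjusted p of these genes were 0.169 for Ly6e (0.36), 0.344 for Cd82 (-0.22) and 0.366 for Itgbl1 (-0.46).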

How the data were processed

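FRC libraries of 4 groups (vehicle, CCM, LA and TCM, 2 each) were grouped by the submitted sample labels. The deposited values are raw read counts per gene. The authors prepared poly(A) RNA with a directional kit, aligned reads with STAR to Ensembl GRCm38 release 100 and counted them with featureCounts; the submitters' notes name STAR 2.7.0a, Subread 2.0.1 and DESeq2 1.32.0. Each of the deposited tables holds counts, and the second equals the first for the 12137 genes it lists, so no separate normalized values were used. All mapped columns were used.

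The genes reaching 10 counts in 3 or more of the 8 libraries were tested with edgeR 4.0.16 in R 4.3.3 (TMM factors, glmQLFit and glmQLFTest with robust estimation, a mean per group, all 8 libraries in the fit) and adjusted by Benjamini-Hochberg over all genes tested. The SE is the log2 fold change divided by the root of F. DESeq2 1.42.0 was an alternative. P-values measure the spread between cultures of a single line. The script was tested on simulated data. Exon lengths and positions are from GENCODE M21 (GRCm38), and promoters from RefSeq. Chain names come from the gene symbols. 1 tested member and 1 marker gene are not reported here, though counts over the lists include them.

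The members and gene lists were chosen with earlier results of these data known. Members called in any comparison are given in full, uncalled ones by level or count, and of each companion list the 3 genes with the smallest adjusted p in TCM over CCM and in LA over vehicle. Alternatives were other normalization, filters, fold thresholds and samples, and a replicate block. The limit of 3 counts covers counting error only.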

Additional observations from a re-analysis of the deposited data

Results flagged for a closer look

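In 5 genes the effect of TCM over CCM differed from that of LA over vehicle by edgeR's test of the difference itself, beside 10.4% of all genes tested. The TCM effect was the higher by 3.31 for Lama5, 1.87 for Itga3, 0.87 for Itga11 and 0.73 for Itgb5 on the log2 scale, and the difference was -1.52 for Itgb3. For Lama5, LA and TCM levels lay on opposite sides of their controls in all 4 treated libraries. TCM had 26.0 and 39.1 CPM over 6.66 and 6.60 in CCM, and LA had 6.15 and 4.73 under 13.5 and 8.23 in vehicle. The fall of Lama5 with LA was not called by edgeR (-1.01, adjusted p = 0.105). For Itgb3 the TCM libraries had 15.5 and 15.1 CPM against 37.4 and 30.8 in CCM, while the LA libraries (34.3 and 51.4) overlapped vehicle (29.3 and 37.8). For Itgb5 the TCM libraries (247 each) were above CCM (202 and 205), and the LA libraries (182 and 176) below vehicle (257 and 231). For Itga3 the CCM level itself differed from vehicle, which enters this difference. Lama5 was lower in both CCM libraries than in both vehicle libraries (log2 fold change -0.70, adjusted p = 0.308, not called), which enters its difference. Over vehicle, Lama5 had 1.60 in TCM (SE 0.241, adjusted p = 0.00108). Both CCM libraries of Itgb5 were also below both vehicle libraries (log2 fold change -0.26, adjusted p = 0.221, not called), which enters its difference too. Over vehicle, Itgb5 had 0.02 in TCM (SE 0.0907, adjusted p = 0.907). The calls of Itga11 and Itgb3 were lost in some fits that left out a library. Groups of 2 libraries are too small for a test of single outlying libraries.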

How the results depend on the processing

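Over 21 calls of single genes, 328 values were computed under the alternatives that kept the fold threshold, wherever the gene was tested, of which 293 stayed called in the same direction, 35 were no longer called and none reversed, and 12 calls held in all of these. With 1 library left out, the counts of called genes ranged from 6 to 8 for TCM over CCM, 0 to 4 for LA over vehicle, 4 to 7 for the difference, 0 to 1 for CCM over vehicle and 4 to 9 for TCM over vehicle, each lone library being assumed to vary like the other groups. With no filter on low counts, which left 36 members tested, the counts were 5 for LA, 9 for the difference and 2 for CCM over vehicle. Calls over all genes then went from 310 to 656 for LA and from 1268 to 1799 for the difference. With only the libraries compared the count was 3 for CCM over vehicle. The cause of these shifts was not tested. Fold thresholds of 0.68 and 1 left 1 and 0 genes for LA, and a threshold of 1 left 3 for the difference, by construction; it also removes calls counted above as held, such as Itgb5 in the difference (0.73). By DESeq2 the counts were 6, 3, 6, 1 and 6 in the order above. Over all genes DESeq2 called 2004, 333 and 1119 in the first 3 comparisons, beside 2314, 310 and 1268 by edgeR. Without TMM factors, which moved the median of all genes by -0.14 in TCM over CCM and -0.10 in TCM over vehicle, Itga11 lost its call in the difference (0.73, adjusted p = 0.0536), and TCM over CCM had 4 higher and 5 lower calls. Itgb2 lost its call with only the libraries compared (adjusted p = 0.0939). Itga8 and Itgb2 were not tested where 10 counts were asked of every library.

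Libraries share replicate numbers, but the study's methods describe no pairing, so the main fit did not read the numbers as pairs. The correlation of their deviations from the group means ran from -0.242 (CCM and TCM) to 0.353 (vehicle and LA). Vehicle and LA are the groups of the LA comparison, and whether their libraries were made in pairs is not given. With the replicate block, 8 genes were called for TCM over CCM, 3 for LA, 7 for the difference, 1 for CCM over vehicle and 6 for TCM over vehicle. The genes called without the block were called with it too, joined by Itgb8 (lower) in TCM over CCM, Lama4 (higher) in LA over vehicle, and Itga4 and Lama4 (lower) in the difference. With the numbers of CCM crossed in the block, chosen after seeing the data, the counts were 9, 5, 10, 1 and 6. In LA over vehicle, Itga4 and Lama4 (higher) and Itga8 (lower) then joined the calls. Calls over all genes were 310 for LA without a block, 356 with it and 596 with it crossed. For the difference they were 1268, 1316 and 1938.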
